A study of Mus musculus with 20 samples.

Results

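This is the response of cultured primary fibroblasts from mouse embryos (MEFs), cells of connective tissue, to bacterial lipopolysaccharide (LPS). The course holds 4 of the 20 RNA-seq libraries of the study: 1 from unstimulated cells (0 h) and 1 each from cells treated with LPS at 100 ng/ml for 0.5, 1 and 3 h. Its libraries were taken by genotype, agent and hour. All 4 libraries come from C57BL/6 cells of the genotype crel-/-, which have lost c-Rel, a subunit of NF-kB made from the gene Rel, and carry an unaltered Rela, the gene of the subunit RelA. Since the 0 h cells lack c-Rel too, every change described here is a change in cells without it. The cells were primary cultures grown in 10% serum and starved overnight in 0.5% serum. The libraries used for comparison come from the same genotype treated with the cytokines IL-1b or TNF at 10 ng/ml for 0.5, 1 or 3 h, and from a second genotype, crel-/-RelA-TA-KI (the knock-in), at 0 h and after the same LPS times. The meaning of TA is not given in the labels, and they name no separate cultures, so each of these 20 conditions is a single library.

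LPS is a cell wall component of Gram-negative bacteria, sensed at the cell surface by Toll-like receptor 4 together with CD14 and MD-2. The receptor signals through the adaptor MyD88 to NF-kB and the MAP kinases, and through the adaptor TRIF to the transcription factor IRF3, which switches on the gene for interferon beta. NF-kB dimers of RelA, p50 and their relatives wait in the cytoplasm bound to IkB proteins and enter the nucleus when IkB is degraded. Secreted interferon beta then acts back on the cells through its receptor and raises a large set of antiviral genes. Fibroblasts answer LPS mainly with chemokines, adhesion molecules and matrix enzymes.

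The 4 libraries held 11071057, 10650820, 10111428 and 9550464 counts at 0, 0.5, 1 and 3 h. Levels are given in counts per 1000000 (CPM) after scaling with the TMM factor of edgeR, and a series of 4 levels always runs in the order 0, 0.5, 1 and 3 h. The factor was 0.743 in the 3 h library and 1.012 to 1.108 in the other 3, so the scaling matters most at 3 h. Of 45706 genes in the table, 14023 passed the filter on low counts. The fibroblast genes Col1a1, Col3a1, Pdgfra and Vim did not change by 2-fold at any time. Macrophage markers were also present, with 15 of 15 tested, none at 0 counts, and a summed level of 5267 CPM at 0 h, 3983 at 0.5 h, 2825 at 1 h and 4111 at 3 h. Lyz2, a lysozyme of macrophages, was the most abundant of them (2062, 1439, 982 and 1309 CPM). In bulk RNA, fewer cells of a type and less RNA per cell cannot be told apart, and the cells that carried any one transcript are not known. Endothelial, epithelial and muscle markers summed to between 2.0 and 74.3 CPM per library.

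A gene was called higher or lower at a time when it differed from 0 h by at least 2-fold with at least 10 counts in the higher library. With 1 library on each side these are differences between libraries with no replicate check, and the 95% intervals given with fold changes cover counting error only. At 0.5 h, 419 genes were higher (2.99% of those tested) and 235 lower (1.68%). At 1 h, 603 were higher (4.3%) and 459 lower (3.27%). At 3 h, 1806 were higher (12.9%) and 2072 lower (14.8%). In all, 2113 genes (15.1%) were higher at some time and 2328 (16.6%) lower. The response was small in the first hour and broad at 3 h, and genes that were lower outnumbered those that were higher only at 3 h. That last order depends on the scaling: with DESeq2's size factors 51.1% of the 3 h calls were higher, against 46.6% with TMM and 21.2% with library totals. With library totals, lower genes outnumbered higher ones at 1 h too (601 against 518).

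Genes that rose were sorted by the LPS time at which they were highest, if that time stood at least 0.5 log2 units above both other LPS times. This gave 45 genes with a peak at 0.5 h, 101 at 1 h and 1549 at 3 h, and 418 with no single peak. Of the genes that fell, 42 were lowest at 0.5 h, 112 at 1 h, 1839 at 3 h and 335 had no single trough. The early classes were made up largely of scarce transcripts. Their median level at 0 h was 0.571 CPM for the 0.5 h peak and 0.978 CPM for the 1 h peak, against 15.4 CPM for the 3 h peak and 22.6 CPM over all genes tested. Among genes with at least 50 counts in the peak library, 8 peaked at 0.5 h, 47 at 1 h and 1302 at 3 h. The early classes also held short genes, with a median span of 9.21 kb for the 0.5 h class and 6.99 kb for the 1 h class, against 26.6 kb for the 3 h class and 23.2 kb for all genes tested. Gene models without a common name (Gm numbers and Rik names) made up 31.1% of the 0.5 h class, 42.6% of the 1 h class and 6.84% of the 3 h class, against 6.87% of all genes tested. Of the 45 genes with a 0.5 h peak, 39 were back within 2-fold of 0 h at 3 h, as were 64 of the 101 with a 1 h peak. Of genes nearest the margin, 6720427I07Rik at 1.22, 11.2, 7.82 and 6.06 CPM was just inside the 0.5 h class and Arntl2 at 2.93, 6.66, 4.69 and 4.23 CPM just outside. Grem1 and Clk1 were so placed for the 1 h class, with 29.3, 42.0, 59.5 and 32.0 CPM inside and 45.9, 82.4, 131 and 94.7 CPM outside. For the 3 h class they were Stx3 (9.29, 13.6, 13.98 and 19.9 CPM) and Col18a1 (108, 146, 154 and 218 CPM), and at the 2-fold threshold Vav3 (26.3, 27.1, 24.1 and 52.8 CPM) was inside and Fzd5 (55.3, 71.1, 70.4 and 111 CPM) outside.

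**Figure D1:**
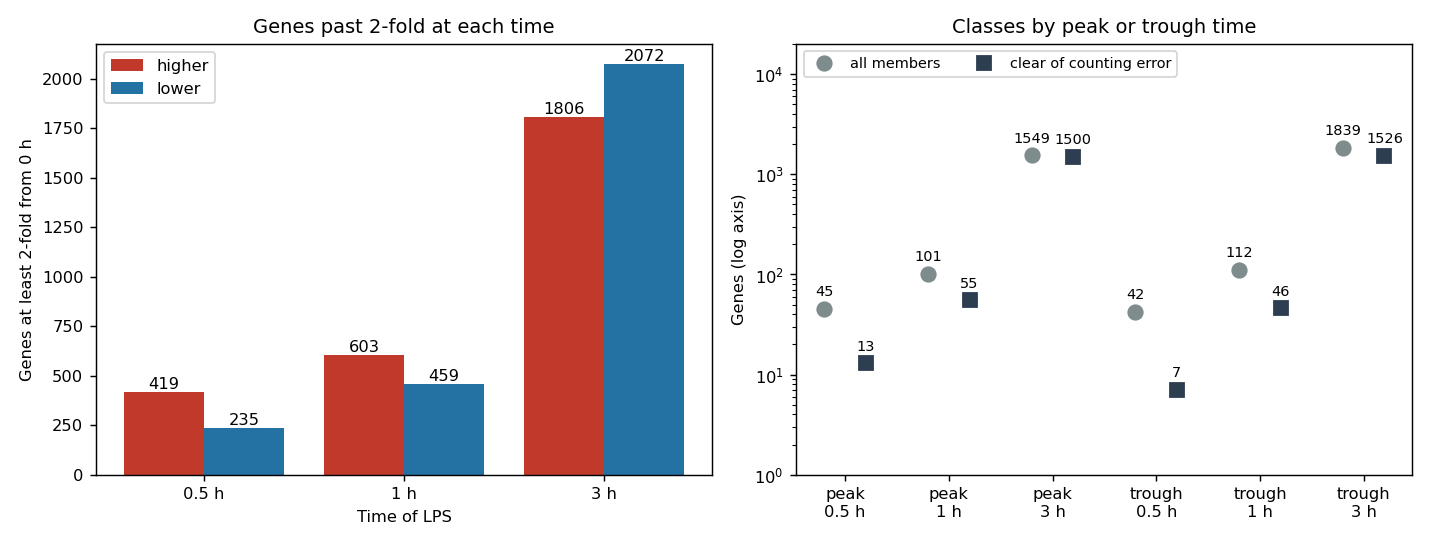
Number of genes at least 2-fold higher or lower than at 0 h after each LPS time, and number of genes in each peak or trough class, in crel-/- cells (1 library per time; log axis for the classes, where dark squares are members whose peak or trough is clear of counting error). Calls rose from 419 higher and 235 lower at 0.5 h to 1806 and 2072 at 3 h, and most classified genes peaked or bottomed at 3 h.

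The receptor itself stayed near its starting level. Tlr4, the LPS receptor, read 46.7, 42.6, 30.9 and 42.1 CPM, and its partner Ly96 (MD-2) read 3.99, 6.47, 4.59 and 5.07 CPM. Both stayed within 2-fold of 0 h. Of the 7 sensing genes, Cd14, which hands LPS to the receptor (37.8, 109.9, 169 and 328 CPM), and Tlr2, a receptor for bacterial lipoproteins (45.1, 123, 253 and 1729.6 CPM), were higher at every LPS time, and Lbp, the serum protein that loads CD14, was higher at 3 h (5.22, 7.57, 4.203 and 51.0 CPM). Among 22 adaptors and kinases 1 was higher at 0.5 h, 1 at 1 h and 9 at 3 h, beside 2.99%, 4.3% and 12.9% of all genes tested. In the other direction 1 was lower at 1 h and 1 at 3 h, beside 3.27% and 14.8%. Only the number higher at 3 h was thus well above the share of all genes. The early one was Map3k8 (Tpl2), the kinase that couples the IkB kinases to ERK, at 5.14, 20.9, 35.1 and 88.6 CPM. At 3 h, Myd88 stood at 463 CPM against 39.8 at 0 h, Irak2 at 80.7 against 14.9, and Ikbke, the interferon-inducing kinase IKK epsilon, at 108 against 20.9. Traf6, Irak4 and Map3k7 had log2 differences of 0.15, -0.64 and 0.32 at 3 h.

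Immediate early genes, which need no new protein to be transcribed, supplied a few members of the early classes: 1 of 11 AP-1 and ATF genes and 2 of 24 other immediate early genes peaked at 0.5 h, and 2 and 5 peaked at 1 h. Fos, the AP-1 subunit (ENSMUSG00000021250.11, chr12:85473890-85477273 in mm10), was the strongest gene of the 0.5 h class. It read 17.1, 254, 110.0 and 46.4 CPM, so it was 14.9-fold (95% counting interval 12.9 to 17.2) higher at 0.5 h and had fallen most of the way back at 3 h. Cyr61 (Ccn1), a matrix-associated protein induced by growth factors, peaked with it and then dropped below its starting level (239, 551, 319 and 96.0 CPM). Plin4, a coat protein of lipid droplets (1.14, 9.85, 6.26 and 2.25 CPM), Hr, a transcriptional corepressor (4.24, 10.6, 6.26 and 4.51 CPM), and Arfgef3 (3.10, 8.11, 5.57 and 4.09 CPM) peaked at lower levels. Against the 0 h library of the knock-in cells, Hr and Arfgef3 were short of 2-fold at 0.5 h, with log2 differences of 0.69 and 0.45. The 1 h class was led by Ier3, a short-lived survival factor (ENSMUSG00000003541.6, chr17:35821684-35822923), at 6.93, 58.9, 244 and 133 CPM, which is 35.2-fold (95% counting interval 28.3 to 44.2) over 0 h at its peak. Zfp36 (tristetraprolin), which destabilizes cytokine mRNAs, was the most abundant of the leading genes at 30.8, 548, 817 and 539 CPM. The upstream sequences of Fos and Ier3 are shown because each leads its class. The runs are the 250 bases before the RefSeq start site on the coding strand in GRCm38.p6, from chr12:85473640-85473889 (plus strand) and chr17:35821463-35821712 (plus strand), with motif matches in capitals.
Fos: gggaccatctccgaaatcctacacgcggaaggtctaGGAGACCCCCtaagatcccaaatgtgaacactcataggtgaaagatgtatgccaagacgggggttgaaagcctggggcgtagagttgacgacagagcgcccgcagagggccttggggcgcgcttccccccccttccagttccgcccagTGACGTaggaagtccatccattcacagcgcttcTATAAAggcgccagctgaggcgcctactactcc
Ier3: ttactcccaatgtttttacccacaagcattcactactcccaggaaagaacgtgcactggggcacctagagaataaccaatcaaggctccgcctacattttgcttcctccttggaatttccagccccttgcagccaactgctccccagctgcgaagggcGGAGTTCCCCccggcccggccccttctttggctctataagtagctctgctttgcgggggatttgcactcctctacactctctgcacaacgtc
In Fos the capitals mark an NF-kB consensus match 214 bases before the start, TGACGT (the core of the cyclic AMP response element) at 66 and a TATAAA box at 33. In Ier3 they mark an NF-kB consensus match at 92. A match describes letters and does not show binding.

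The AP-1 and ATF genes did not share one time course. Of 11 tested, 6 were higher at 0.5 h, 8 at 1 h and 8 at 3 h. Fosb, another Fos family member, read 3.18, 50.5, 38.3 and 2.54 CPM, and Junb, a Jun family member that restrains c-Jun, read 22.6, 289, 484 and 445 CPM. Fosl1, known as a late Fos relative, was highest at 3 h (1.55, 3.19, 18.5 and 22.7 CPM), and Maff, a small Maf protein without an activation domain, peaked at 1 h (2.77, 20.4, 46.9 and 31.8 CPM). Jun itself read 106, 323, 386 and 310.0 CPM. Batf, a partner of Jun in immune cells, was lower at 0.5 and 1 h and higher at 3 h, on few counts (1.30, 0.456, 0.293 and 6.20 CPM).

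Of 24 other immediate early genes, 14 were higher at 0.5 h, 17 at 1 h and 13 at 3 h, with medians of 1.58, 2.08 and 1.23 log2 units. The median over all genes tested was 0.00, -0.01 and -0.08. Egr1, a zinc finger factor switched on by ERK, read 116, 664, 546 and 334 CPM, and its relative Egr3 peaked at 1 h (4.24, 25.9, 52.98 and 27.9 CPM). Egr1 and Egr3 were thus still above 0 h at 3 h. Nr4a1, an orphan nuclear receptor, was as high at 1 h as at 0.5 h and then went back under its starting level (16.0, 192, 185 and 11.1 CPM). Btg2, an antiproliferative gene, rose and largely returned (43.4, 277, 398 and 92.2 CPM), and Klf10, a TGF-beta-inducible zinc finger factor, returned fully (28.5, 37.1, 120.3 and 27.3 CPM). Srf, which encodes the serum response factor, was lower at 3 h (48.9, 85.0, 82.1 and 21.3 CPM), as was Cyr61.

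Feedback genes of the MAP kinase pathway and of mRNA decay followed within the first hour. Among 13 MAP kinase phosphatase and Sprouty genes, 5 were higher at 0.5 h, 6 at 1 h and 9 at 3 h, and 2 were lower at 3 h. Dusp1, which inactivates p38 and JNK, read 8.97, 155, 168 and 75.1 CPM, and Dusp2, a nuclear phosphatase of ERK and p38, read 0.245, 19.3, 10.8 and 84.8 CPM. Dusp4 and Dusp5, both ERK phosphatases of the nucleus, peaked at 1 h (2.93, 11.4, 37.1 and 9.16 CPM and 5.05, 19.9, 69.8 and 33.3 CPM). Of 10 mRNA decay and SOCS genes, 3 were higher at 0.5 h, 8 at 1 h and 7 at 3 h. Zc3h12a (regnase-1), a nuclease of cytokine mRNAs, read 6.28, 26.4, 55.6 and 175 CPM, and Socs3, an inhibitor of IL-6 family signalling, read 16.1, 92.3, 142 and 396 CPM.

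**Figure D2:**
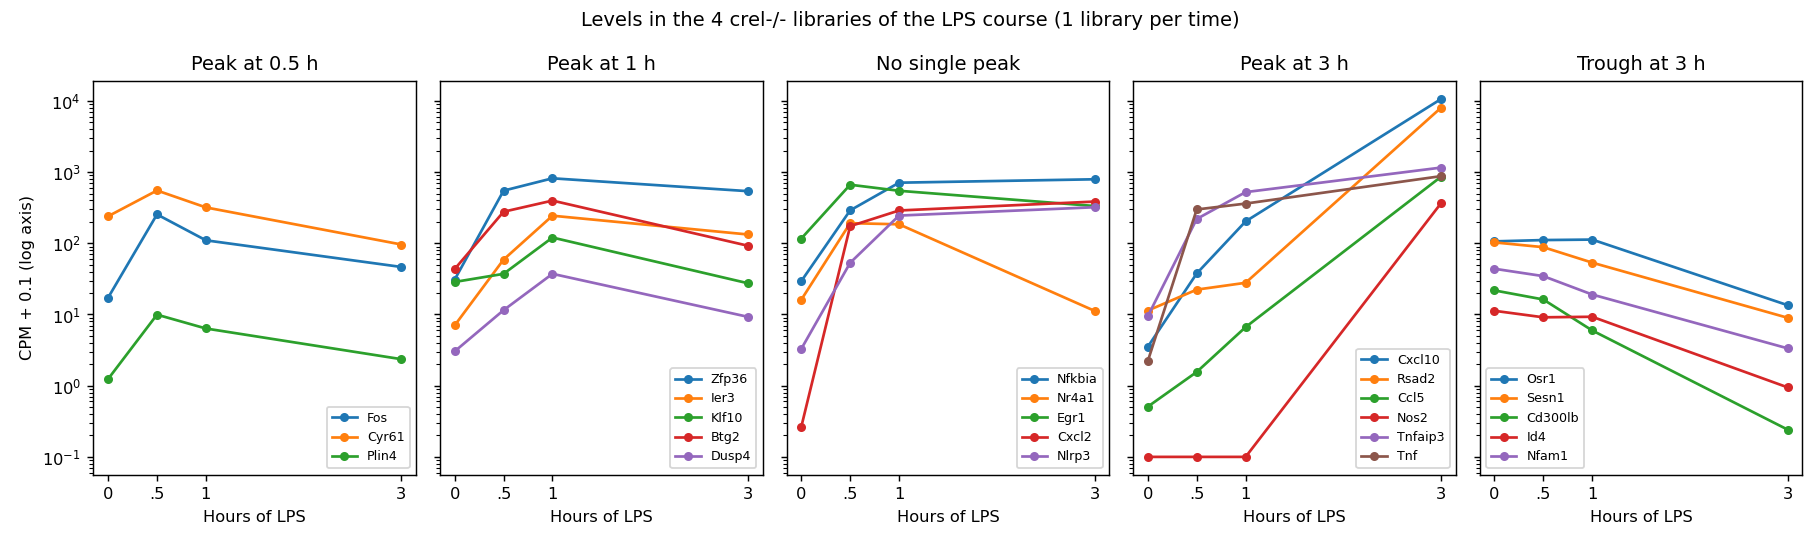
Level of example genes at 0, 0.5, 1 and 3 h of LPS in crel-/- cells (CPM plus 0.1 on a log axis, 1 library per time), 1 panel per class: peak at 0.5 h, 1 h, no single peak, peak at 3 h, and trough at 3 h. Fos reached 254 CPM at 0.5 h and fell to 46.4 at 3 h, while Cxcl10 reached 10648 CPM and Rsad2 8050.2 CPM at 3 h.

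The 418 genes with no single peak included genes that came up within 0.5 h and stayed up. Nfkbia, which encodes IkB alpha (ENSMUSG00000021025.7, chr12:55489411-55492647), read 29.3, 289.7, 709 and 792 CPM. Cxcl2, a neutrophil-attracting chemokine, rose from 2 counts at 0 h to 174 CPM at 0.5 h and 385 CPM at 3 h. Nlrp3, the sensor of the inflammasome, read 3.18, 53.1, 245 and 321 CPM. Of the 418 genes, 102 were higher at all 3 LPS times. Some transcripts of other kinds had a similar profile. The nuclear RNA Malat1 read 230, 743, 1047 and 983 CPM, Gm42418, a gene model that overlaps ribosomal RNA sequence, read 17082, 49245, 50894 and 53575 CPM, and mitochondrial transcripts took 0.79%, 1.51%, 1.63% and 1.33% of counts. In the TNF libraries Gm42418 lay between 10349 and 18994 CPM, and in the IL-1b libraries between 14877 and 32113 CPM. The class as a whole stood at a median of 1.124 log2 units above 0 h in the LPS libraries, 0.97 in the IL-1b libraries and 0.35 in the TNF libraries, all against the same 0 h library. The part of these transcripts in the class was not tested. Within the LPS libraries alone, 1606 genes (11.5%) were higher and 1890 (13.5%) lower at 3 h than at 0.5 h, including 1408 of the 1549 genes with a 3 h peak and 1480 of the 1839 with a 3 h trough.

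NF-kB's own genes rose late, after several of its inhibitors. All 5 subunit genes were higher at 3 h and 1 of them at 1 h, with medians of 0.21, 0.91 and 3.50 log2 units at 0.5, 1 and 3 h. Relb read 16.2, 23.9, 62.3 and 241 CPM, Nfkb2, which encodes p100, read 51.0, 53.4, 95.8 and 589 CPM, and Nfkb1, which encodes p105, read 85.1, 98.3, 110.3 and 968 CPM. Rela read 73.5, 73.3, 99.4 and 344 CPM. Reads of Rel continued to be counted and went from 16.4 to 60.3 CPM. Whole-gene counts do not show whether c-Rel protein can be made, so they do not check the genotype.

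Of 20 inhibitors and feedback genes of NF-kB, 6 were higher at 0.5 h, 10 at 1 h and 19 at 3 h. Tnfaip3 (A20), a ubiquitin-editing brake on the pathway, read 9.37, 219, 523 and 1157 CPM, so it was 23.4-fold (95% counting interval 19.4 to 28.5) higher at 0.5 h. Nfkbiz (IkB zeta), a nuclear cofactor for secondary genes, read 9.70, 245, 490.3 and 709 CPM, and Nfkbid, its relative, read 0.571, 22.2, 16.4 and 10.6 CPM. Nfkbie (IkB epsilon) and Bcl3, a nuclear IkB protein that binds p50 and p52, came later, with 9.21, 15.9, 62.0 and 317 CPM and 6.85, 11.9, 50.8 and 164 CPM. Nfkbia was 9.90-fold (95% counting interval 8.87 to 11.1) higher at 0.5 h and 27.1-fold (95% counting interval 24.3 to 30.2) at 3 h. Its upstream sequence is shown because it is the standard example of NF-kB feedback. It runs over chr12:55492648-55492897 on the minus strand.
Nfkbia: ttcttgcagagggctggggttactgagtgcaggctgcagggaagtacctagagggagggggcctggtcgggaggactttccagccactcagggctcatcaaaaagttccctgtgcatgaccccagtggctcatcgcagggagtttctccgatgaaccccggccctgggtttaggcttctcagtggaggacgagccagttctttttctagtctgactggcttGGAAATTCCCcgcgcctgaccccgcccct
The capitals mark an NF-kB consensus match 29 bases before the start. Promoters were found in the RefSeq table for 75.8% of the genes tested (10632), so motif shares describe the matched genes only. The NF-kB consensus, searched on both strands, was in 4.68% of these promoters and in 6 of the 19 matched inhibitor genes (31.6%). It was in 5 of 12 matched chemokines (41.7%), 9.33% of the 3 h class, 3 of 24 matched genes of the 0.5 h class (12.5%) and 2 of 44 of the 1 h class (4.55%). TGACGT was in 10.1% of all promoters, 6 of 17 matched other immediate early genes (35.3%) and 18.2% of the 1 h class.

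Chemokines came up in steps. Of 20 tested, 8 were higher at 0.5 h, 14 at 1 h and 18 at 3 h, with medians of 1.13, 3.36 and 7.31 log2 units. Ccl22 had no count at 0 h, and with its lower bound in place of the fitted value the 3 h median was 7.16. Cxcl1, a neutrophil attractant, read 1.06, 16.1, 279.6 and 621 CPM, and Ccl2, the main monocyte attractant, read 4.08, 24.3, 263 and 3113 CPM. Ccl20, which attracts Th17 cells and dendritic cells, read 0.163, 0.365, 27.6 and 139.7 CPM. Ccl5 and Cxcl9, which attract T cells, were nearly silent until 1 h (0.408, 1.46, 6.55 and 863 CPM and 0.163, 0.274, 1.66 and 1551 CPM). Cxcl10, another T cell attractant, was the most abundant chemokine per length at 3 h: 4728 CPM per kilobase of exon, against 4269 for Col1a1, the main collagen gene. Ccl11 (eotaxin) read 1.30, 0.912, 0.684 and 13.1 CPM, and Cxcl14, a chemokine of resting tissue, read 39.4, 29.1, 29.9 and 56.7 CPM.

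Cytokine genes included some of the largest early changes. Of 23 tested, 5 were higher at 0.5 h, 12 at 1 h and 16 at 3 h. Tnf read 2.12, 298, 361 and 877 CPM, so it was 141-fold (95% counting interval 95.9 to 216) higher at 0.5 h. Il1b had 1 count at 0 h and read 0.0815, 30.4, 126 and 652 CPM, and Il1a read 0.0815, 1.09, 14.4 and 65.5 CPM. Il6, a fibroblast cytokine that drives the acute phase, rose from 0.326 and 0.456 CPM to 1.86 and 330.0 CPM. Lif, its relative, read 2.85, 4.28, 54.6 and 254 CPM, and Csf1, the macrophage growth factor, read 152, 144, 422 and 1427 CPM. Hbegf, a ligand of the EGF receptor, peaked at 1 h (12.6, 21.4, 53.8 and 23.1 CPM). Tnf and Il1b are made chiefly by macrophages in most tissues, and the macrophage markers Csf1r and Adgre1 stood at 478, 383, 273 and 317 CPM and 286, 267, 187 and 526 CPM in the same libraries. Their part in these rises was not tested.

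**Figure D3:**
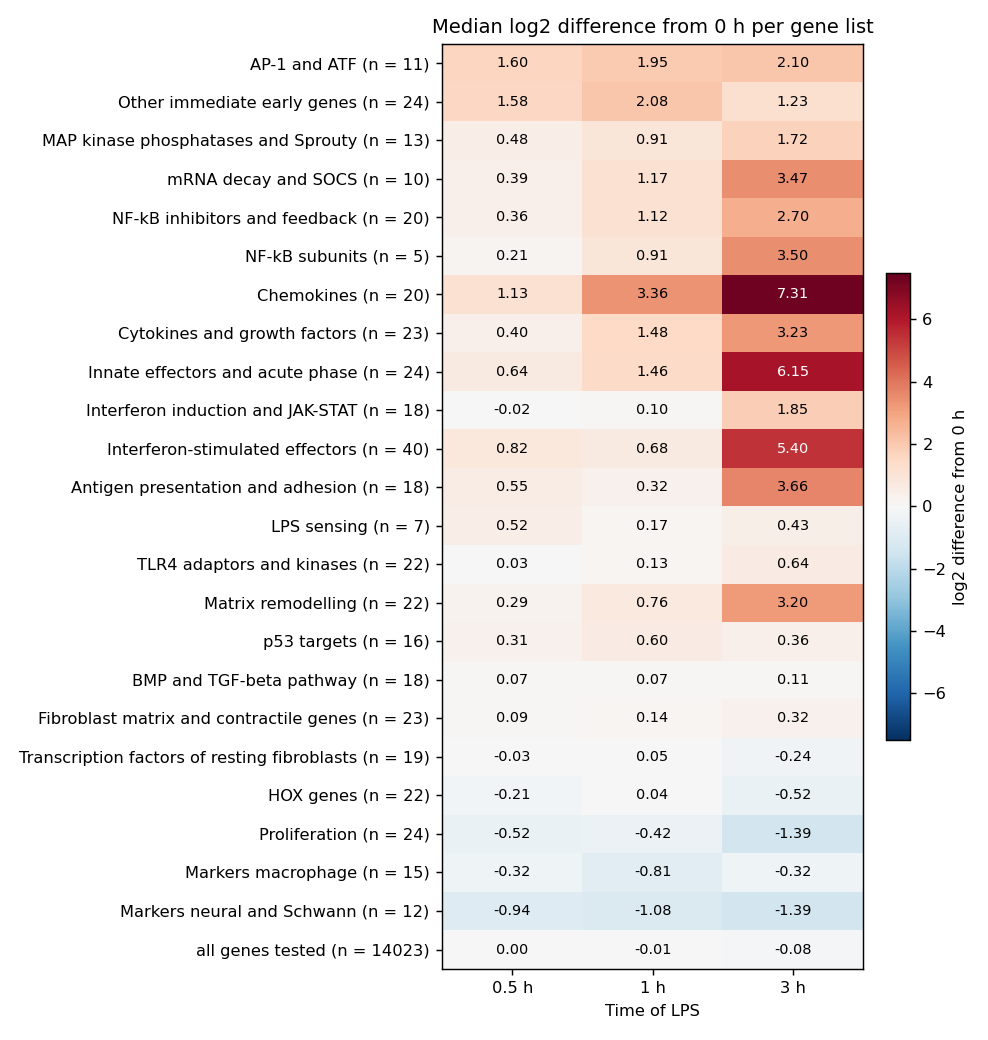
Median log2 difference from 0 h at 0.5, 1 and 3 h of LPS for the genes tested in each list (crel-/- cells, 1 library per time; TMM scaling), with the value printed in each cell. Chemokines (7.31), innate effectors (6.15) and interferon-stimulated effectors (5.40) had the highest medians at 3 h, and AP-1 and other immediate early genes the highest at 0.5 h.

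The transcript of interferon beta came up before most interferon targets. Ifnb1 had no count at 0 h and read 0.456, 10.4 and 39.0 CPM at 0.5, 1 and 3 h, which is at least 42.4-fold higher at 1 h and at least 159.6-fold higher at 3 h against a floor of 3 counts at 0 h. Irf1, a factor induced by NF-kB, also rose early (27.7, 126, 545 and 997 CPM). Irf7, which amplifies interferon production, and Stat2, which carries the interferon signal, were higher at 3 h, with 20.2, 39.5, 30.9 and 596 CPM and 91.1, 102, 96.9 and 781 CPM. Of 18 genes of interferon induction and JAK-STAT signalling 1 was higher at 0.5 h, 2 at 1 h and 14 at 3 h. Irf3, which is activated by phosphorylation, read 28.1, 32.6, 32.3 and 31.1 CPM. Irf8, a myeloid factor, had log2 differences of -0.28, -1.41 and 1.68 at 0.5, 1 and 3 h.

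All 40 interferon-stimulated effectors were higher at 3 h, beside 12.9% of all genes tested. Their summed level was 1498 CPM at 0 h, 2786 at 0.5 h, 2559 at 1 h and 77201 at 3 h. Rsad2 (viperin), which blocks viral replication, read 11.2, 22.2, 27.8 and 8050.2 CPM, and Ifit1, which binds viral RNA, read 59.2, 130.01, 136 and 8256 CPM. Gbp5, a guanylate-binding protein that attacks intracellular bacteria, read 0.978, 2.01, 5.08 and 1819 CPM, and Isg15, a ubiquitin-like modifier, read 46.0, 100.7, 93.2 and 1076 CPM. The smallest 3 h differences in the list were those of Bst2 (log2 2.002), which tethers budding virus, and Adar (log2 2.73), an RNA editor. The first hour held no steady rise: 13 of the 40 were higher at 0.5 h (median 0.82) and 11 at 1 h (median 0.68), with 3.26, 14.04 and 8.41 CPM for Mx1 at 0, 0.5 and 1 h. Most of the rise of this list thus lay between 1 and 3 h.

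The upstream sequences of Cxcl10, Rsad2 and Ifit1 are shown because these 3 were among the most abundant genes of the response at 3 h and carry different motif sets. They run over chr5:92348890-92349139 (minus strand), chr12:26456453-26456702 (minus strand) and chr19:34640639-34640888 (plus strand).
Cxcl10: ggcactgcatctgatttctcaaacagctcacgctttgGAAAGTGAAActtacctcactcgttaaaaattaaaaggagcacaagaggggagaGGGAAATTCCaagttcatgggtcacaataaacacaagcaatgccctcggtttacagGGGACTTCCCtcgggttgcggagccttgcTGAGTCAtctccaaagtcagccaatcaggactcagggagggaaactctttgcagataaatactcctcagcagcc
Rsad2: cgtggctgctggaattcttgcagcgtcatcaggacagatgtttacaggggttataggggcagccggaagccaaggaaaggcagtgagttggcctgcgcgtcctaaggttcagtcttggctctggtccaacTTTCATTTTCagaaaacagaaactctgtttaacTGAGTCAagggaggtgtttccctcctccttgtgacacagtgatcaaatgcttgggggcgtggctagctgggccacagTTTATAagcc
Ifit1: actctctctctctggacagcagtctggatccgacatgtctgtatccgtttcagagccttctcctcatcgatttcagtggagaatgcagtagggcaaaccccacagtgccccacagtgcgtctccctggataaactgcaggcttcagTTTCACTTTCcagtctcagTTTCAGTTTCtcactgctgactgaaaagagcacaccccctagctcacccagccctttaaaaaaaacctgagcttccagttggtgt
In Cxcl10 the capitals mark the core of the interferon-stimulated response element (GAAA, then any 2 bases, then GAAA) 213 bases before the start, NF-kB consensus matches at 159 and 103, and TGANTCA, the AP-1 site, at 74. In Rsad2 they mark the response element on the other strand at 120, TGANTCA at 87 and a TATAAA box on the other strand at 10. In Ifit1 they mark response elements on the other strand at 104 and 85. This core was in 2.71% of all matched promoters and in 16 of the 31 matched effectors (51.6%), and in 7.93% of the 3 h class. Mean GC content was 49.9% in the effectors' promoters and 60.2% in all.

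Antigen presentation and adhesion genes were likewise all higher at 3 h, with 1 of 18 higher at 0.5 h, 4 at 1 h and 18 at 3 h. Tap1, which moves peptides into the endoplasmic reticulum, read 37.8, 62.6, 56.6 and 752 CPM, Psmb9, a subunit of the immunoproteasome, read 6.28, 10.8, 5.57 and 99.6 CPM, and H2-K1, a class I heavy chain, read 146, 269, 234 and 985 CPM. The adhesion molecules that stop leukocytes started earlier, with 34.5, 64.9, 171 and 1577 CPM for Icam1 and 118, 123, 436 and 2812 CPM for Vcam1.

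Innate effectors and acute phase genes held Acod1, Nos2 and Serpina3f, which were among the 8 largest rises of the 3 h class. All 24 tested were higher at 3 h, 12 at 1 h and 6 at 0.5 h. Nos2, the inducible nitric oxide synthase, had no count at 0, 0.5 or 1 h and 2609 counts at 3 h, which is at least 1504-fold higher against a floor of 3 counts. Acod1, which makes itaconate, read 0.0815, 3.19, 105 and 1672 CPM, and Saa3, a serum amyloid protein, read 0.163, 0.274, 1.08 and 100.2 CPM. Ptgs2 (cyclooxygenase 2) rose earlier, with 11.1, 46.5, 143 and 1070.5 CPM. Clec4e (Mincle) and Gpr84, receptors better known from myeloid cells, were up by 0.5 h (0.652, 21.3, 73.8 and 255 CPM and 0.734, 6.93, 20.6 and 65.0 CPM). Of 22 matrix remodelling genes, 2 were higher at 0.5 h, 7 at 1 h and 15 at 3 h, and 2 were lower. Mmp13, a collagenase, read 3.99, 5.65, 18.1 and 1419.7 CPM, Has1, a hyaluronan synthase, read 0.0815, 0.274, 2.44 and 37.2 CPM, and Plau, the urokinase, peaked at 1 h (43.4, 73.8, 147 and 37.3 CPM). Adamts1 and Adamts5, proteases that cut proteoglycans, were the lower ones. Of 23 structural matrix and contractile genes 3 were higher at 3 h, a share near the background of 12.9%, and they were Fn1, Fbn1 and Eln. The calls of Fn1 and Eln depend on the scaling or baseline: with library totals their log2 differences were 0.96 and 0.52 (1.54 and 1.10 with TMM), and Eln stood at 0.59 against the knock-in 0 h library. Of 16 p53 targets 1 was higher at 0.5 h, 6 at 1 h and 4 at 3 h, beside 2.99%, 4.3% and 12.9% of all genes tested.

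Among genes that fell, most of the change lay between 1 and 3 h. Of the 1839 genes lowest at 3 h, 1706 (92.8%) first passed 2-fold at 3 h and 39 (2.12%) at 0.5 h. The strongest were Cd300lb, a receptor of myeloid cells (21.7, 16.1, 5.87 and 0.141 CPM), Lyl1, a blood cell transcription factor (17.4, 12.7, 4.69 and 0.141 CPM), and Cnr2, the cannabinoid receptor of immune cells (8.72, 4.56, 0.684 and 0 CPM), which was at least 20.6-fold lower at 3 h than at 0 h. Not all macrophage genes followed them. Of the 15 macrophage markers, 4 were lower at 1 h, beside 3.27% of all genes tested. At 3 h 1 was lower and 2 were higher, beside 14.8% and 12.9% of all genes tested. The number higher at 3 h was thus near the share of all genes. Cx3cr1, the fractalkine receptor, fell throughout (211, 108, 72.3 and 20.7 CPM), while Ptprc (CD45) and Fcgr1, an antibody receptor, were higher at 3 h, with 78.3, 77.2, 77.7 and 203 CPM for Ptprc and 41.2, 29.3, 15.6 and 105 CPM for Fcgr1. Sesn1, a stress-responsive inhibitor of mTORC1, dropped 11.6-fold (103, 88.1, 53.4 and 8.88 CPM).

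Genes of cell division were lower at 3 h more often than the 14.8% of all genes tested, and regulators of resting fibroblasts went both ways. Osr1, a transcription factor of embryonic mesenchyme, read 106, 111, 113 and 13.4 CPM. At 3 h 6 of 19 such factors were lower and 4 higher, beside 14.8% and 12.9% of all genes tested. Of 22 HOX genes, which keep a cell's position along the body, 8 were lower and 2 higher at 3 h, beside the same shares. Of 24 proliferation genes, 3 were lower at 0.5 h, 3 at 1 h and 15 at 3 h, and 1 was higher at 3 h. Ccne2, a cyclin of S phase entry, read 18.9, 8.02, 9.19 and 5.64 CPM, Cdc6, a replication licensing factor, read 8.72, 3.92, 4.203 and 1.13 CPM, and Plk1, a mitotic kinase, read 34.0, 25.3, 30.0 and 12.8 CPM. Against the knock-in 0 h library Plk1 was short of 2-fold (log2 -0.91). Of 18 genes of the BMP and TGF-beta pathway, 5 were lower and 5 higher at 3 h, beside 14.8% and 12.9% of all genes tested. Id4, a direct BMP target, read 11.2, 9.03, 9.19 and 0.846 CPM, and Smad6, an inhibitory SMAD, read 19.2, 22.2, 22.4 and 4.65 CPM. The BMP antagonist Nog and the decoy receptor Bambi went up, with 2.85, 0.821, 1.47 and 43.0 CPM and 18.9, 13.5, 13.2 and 139 CPM. Smad7, the inhibitor of TGF-beta receptors, peaked at 1 h (19.2, 15.8, 58.2 and 10.0 CPM).

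Among the early fallers were genes of bone and glia. Ibsp, a bone matrix protein, read 5.79, 0, 0.0978 and 0.705 CPM and was at least 21.2-fold lower at 0.5 h. Of 12 glial and neural markers tested, 6 were lower at 0.5 h, 6 at 1 h and 7 at 3 h, and their summed level was 221, 182, 211 and 183 CPM. Gfap, an intermediate filament of astrocytes, read 54.7, 9.94, 6.84 and 9.16 CPM, and Sox10, a factor of neural crest and Schwann cells, read 1.22, 0.182, 0.293 and 0.282 CPM. Both were already down at 0.5 h and changed little after it. In the knock-in cells Gfap read 7.28, 0.582, 0.960 and 1.123 CPM, so its level at 0 h differed between the genotypes by more than it differed among the LPS times. Set against the knock-in 0 h library, the LPS libraries gave a log2 difference of -0.09 for Gfap at 1 h, against -2.97 with their own 0 h library, whereas Ibsp (-5.98) and Sox10 (-2.72) at 0.5 h stayed down. The neural list then had medians of -0.47, -0.48 and -0.92 log2 units at 0.5, 1 and 3 h, against -0.94, -1.08 and -1.39. The 8 cartilage and bone markers tested had 0.06, 0.10 and 0.30, against -0.70, -0.88 and -0.62, so the low median of that list was not seen with the other baseline.

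A pair of tests was possible across the course, both with 2 residual degrees of freedom. In the comparison with 0 h the 3 LPS times stood in as replicates, so change among them counted as spread. Comparing the 3 LPS libraries with 0 h, edgeR's quasi-likelihood test with Benjamini-Hochberg adjustment called no gene (smallest adjusted p = 0.997). Without adjustment 269 genes were higher and 128 lower at p under 0.05, and DESeq2 called 65 and 2. Testing a slope over hours, edgeR called 1595 genes rising (11.4%) and 1231 falling (8.78%). With library totals in place of TMM these were 1098 and 5060. The rising set held 1282 of the 1549 genes with a 3 h peak, and the falling set 941 of the 1839 with a 3 h trough, measured on the same libraries. All 40 interferon effectors, 18 of 18 antigen presentation genes and 5 of 5 NF-kB subunits had a rising slope, against 11.4% of all genes tested. The smallest edgeR p-values among risers were those of Ccl5, with a slope of 3.62 log2 units per hour (SE 0.08, adjusted p = 4.84e-04), Serpina3f, 4.43 log2 units per hour (SE 0.09, adjusted p = 4.84e-04), Ifi205, 3.23 log2 units per hour (SE 0.07, adjusted p = 4.84e-04), and Saa3, 3.25 log2 units per hour (SE 0.08, adjusted p = 8.23e-04). The level of each was above 0 h at 3 of 3 LPS times, for Saa3 at 0.5 h by 3 counts against 2, and since Serpina3f had no count at 0 h its fitted slope depends on the prior count. Among fallers they were Nfam1, -1.28 log2 units per hour (SE 0.09, adjusted p = 0.00582), Otulinl, -1.19 log2 units per hour (SE 0.09, adjusted p = 0.00582), Sesn1, -1.22 log2 units per hour (SE 0.09, adjusted p = 0.00604), and Plekho1, -1.02 log2 units per hour (SE 0.08, adjusted p = 0.00604), from edgeR with each lower at 3 of 3 times. A slope cannot see a brief peak: for Fos the same edgeR test gave adjusted p = 0.649. Leaving out the 3 h library reduced the slope calls to 181 rising and 103 falling, and leaving out the 0.5 h library to 239 and 29.

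Few genes were called different between LPS and IL-1b over all 3 times, by a test that takes a difference changing with time as spread. The small number does not show that the responses were alike. At 3 h alone, 1305 genes (9.31%) were at least 2-fold higher with LPS and 1261 (8.99%) lower, 1 library against 1. With the time as a block (9 libraries, 4 residual degrees of freedom), edgeR called 7 genes higher under LPS than IL-1b (0.0499%) and 0 lower. Without adjustment 382 were higher and 252 lower at p under 0.05, and DESeq2 called 42 and 9. The 7 were Gpr84, Clec4e, Cd14, H2-M2, Tnip3, Cd83 and Ifnb1, and each was higher at 3 of 3 times. For Gpr84 the edgeR log2 difference was 3.88 (SE 0.20, adjusted p = 0.00905), for Clec4e 6.18 (SE 0.38, adjusted p = 0.0135), and for Ifnb1 7.70 (SE 0.68, adjusted p = 0.0371). Clec4e read 21.3, 73.8 and 255 CPM under LPS, 0.882, 0.894 and 2.23 CPM under IL-1b and 16.6, 39.6 and 152 CPM under TNF at 0.5, 1 and 3 h. Gpr84 read 6.93, 20.6 and 65.0 CPM, 0.490, 1.06 and 5.34 CPM and 7.9997, 17.1 and 89.4 CPM in that order. Both genes therefore lay near the TNF level and far above that of IL-1b. Ifnb1, in contrast, read 0, 0.163 and 0 CPM under IL-1b and 0, 0 and 0.171 CPM under TNF, and its fitted difference depends on the prior count. The call rests on single libraries: without 1 of them the number of genes higher than with IL-1b ranged from 0 to 13.

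Against TNF, edgeR called 189 genes higher (1.35%) and 87 lower (0.62%). The smallest p-values were those of Sned1, a matrix protein, with a log2 difference of 1.58 (SE 0.07, adjusted p = 0.00160), Aqp1, a water channel, 1.35 (SE 0.06, adjusted p = 0.00160), Birc6, 1.30 (SE 0.07, adjusted p = 0.00341), and Penk, proenkephalin, 1.81 (SE 0.10, adjusted p = 0.00341), all from edgeR and higher at 3 of 3 times. Those lower were Cyp26b1, -1.71 (SE 0.11, adjusted p = 0.00365), and Aldh1a2, -1.56 (SE 0.14, adjusted p = 0.00919), which break down and make retinoic acid, Cd36, a fatty acid receptor, -1.28 (SE 0.12, adjusted p = 0.00965), and Upk3b, a marker of mesothelium, -1.51 (SE 0.14, adjusted p = 0.009997), from the same edgeR test and lower at 3 of 3 times. Birc6 read 127 CPM at 0 h and lay between 294 and 353 CPM in the LPS libraries. It lay between 258 and 328 in the IL-1b libraries and 116 and 138 in the TNF libraries. Malat1 was also above its 0 h level of 230 CPM in the IL-1b libraries (645 to 1035 CPM). Gm42418 was not always so, with 14877 to 32113 CPM under IL-1b against 17082 at 0 h. In the knock-in cells Birc6 read 140 CPM at 0 h and 287 to 407 CPM in the LPS libraries. Malat1 there read 311 CPM at 0 h and 871 to 1498 CPM with LPS, and Gm42418 8932 and 52130 to 96750 CPM, so all 3 were higher in the LPS libraries of both genotypes. Without the TNF 0.5 h or the TNF 1 h library no gene was called in either direction, without TNF 3 h 4 were higher and 0 lower, and without LPS 3 h 766 were higher and 689 lower.

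For some genes the order of the agents turned over between 0.5 and 3 h. At 0.5 h Nfkbia read 289.7 CPM under LPS, 811 under IL-1b and 814 under TNF, so IL-1b stood 2.80-fold over LPS (95% counting interval 2.69 to 2.92). At 3 h it read 792, 316 and 562. Icam1 turned over in the same way, from 64.9, 174 and 148 CPM under LPS, IL-1b and TNF at 0.5 h to 1577, 648 and 930.5 at 3 h. Ccl2 went from 24.3, 289 and 206 CPM to 3113, 962 and 1171. Of 24 other immediate early genes, 15 were at least 2-fold lower at 0.5 h than with IL-1b and 12 than with TNF, beside 1.15% and 2.12% of all genes (0.97% and 2.11% were higher). At 3 h, 11 and 10 of them were higher than with IL-1b and TNF, beside 9.31% and 10.1% (8.99% and 10% were lower). None of them was higher at 0.5 h, and 1 and 3 were lower at 3 h. Other genes were already higher with LPS at 0.5 h: against TNF, 29 of the 45 genes with a 0.5 h peak (2 lower) and 138 of the 418 with no single peak (14 lower), and against IL-1b 8 (2 lower) and 26 (16 lower). These classes were chosen on the same LPS libraries. Ccl3, a chemokine for monocytes, was highest under LPS at all 3 times, with 102, 164 and 1122 CPM, against 10.6, 9.19 and 8.55 under IL-1b and 68.6, 7.99 and 16.75 under TNF. These comparisons at single times set 1 library against 1.

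Nearly all interferon-stimulated effectors were higher under LPS than under either cytokine at 3 h. Of 40, 39 were at least 2-fold higher than with IL-1b (median 2.88 log2 units) and 40 of 40 than with TNF (median 3.82). Cxcl10 read 10648 CPM at 3 h of LPS, 272 with IL-1b and 529 with TNF, and Rsad2 read 8050, 108 and 90.1 CPM. At 1 h the order was different, with 9 of 40 lower than with IL-1b, beside 2.14% of all genes (1.56% were higher), and 14 higher than with TNF, beside 2.96% (3.17% were lower). Antigen presentation genes were higher with LPS at 3 h in 15 of 18 against both cytokines, and cytokine genes in 13 of 23. Tnf itself read 298, 361 and 877 CPM under LPS, 5.98, 2.28 and 7.19 CPM under IL-1b and 77.6, 20.5 and 30.0 CPM under TNF. Il1b read 30.4, 126 and 652 CPM, 0.0980, 0.325 and 3.01 CPM and 36.3, 6.32 and 10.9 CPM in that order. It was highest under LPS at 1 and 3 h, but at 0.5 h it was higher under TNF, with LPS at 0.837 times the TNF level (95% counting interval 0.726 to 0.965).

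**Figure D4:**
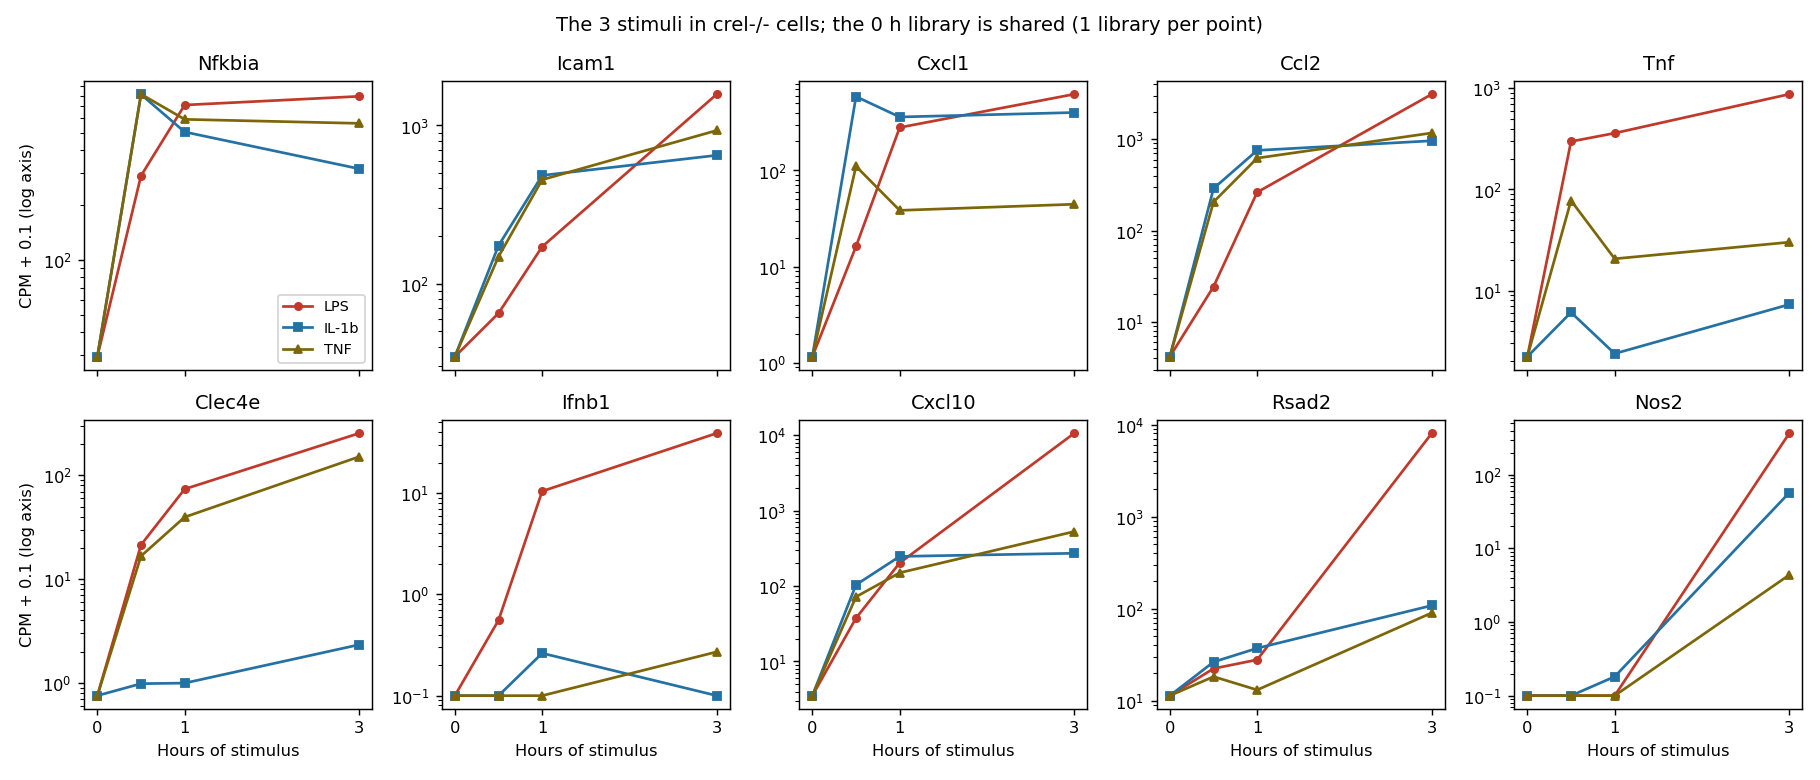
Level of 10 genes over time under LPS, IL-1b and TNF in crel-/- cells (CPM plus 0.1 on a log axis, 1 library per point, a single 0 h library for all agents). Nfkbia, Icam1 and Ccl2 were highest under IL-1b or TNF at 0.5 h and under LPS at 3 h, while Cxcl10 and Rsad2 under LPS left the other agents behind at 3 h.

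The times of the peaks could be compared with libraries whose levels did not set them. These libraries did enter the filter on low counts and the TMM scaling over all 20 libraries. A scarce gene could thus pass the filter through libraries in which it was high, and how far this raised the shares was not tested. In the 3 knock-in LPS libraries, 60.0% of the 0.5 h class was highest at 0.5 h, against 33.4% of all genes tested. For the 1 h class the share highest at 1 h was 55.4%, against 23.8%, and for the 3 h class the share highest at 3 h was 95.2%, against 42.8%. The share was highest for the 3 h class, for which that of all genes was highest too. Fos peaked at 0.5 h in the knock-in cells too (20.03, 324, 69.0 and 54.3 CPM), whereas Ier3 did not peak at 1 h there (7.28, 22.98, 30.9 and 159 CPM), and neither did Zfp36 (35.8, 462, 285 and 407 CPM). Cxcl10 and Rsad2 again peaked at 3 h, with 9.93, 13.9, 47.8 and 8203 CPM and 18.9, 27.5, 61.0 and 9903 CPM. Saa3 had no count in any of the 4 knock-in libraries. In the IL-1b course of crel-/- cells, 40.0%, 47.5% and 70.0% of the 3 classes were highest at the same hour, and in the TNF course 40.0%, 57.4% and 70.6%. Over all genes tested these shares were 29.5%, 31.1% and 39.4% with IL-1b and 33.4%, 26.1% and 40.5% with TNF.

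**Figure D5:**
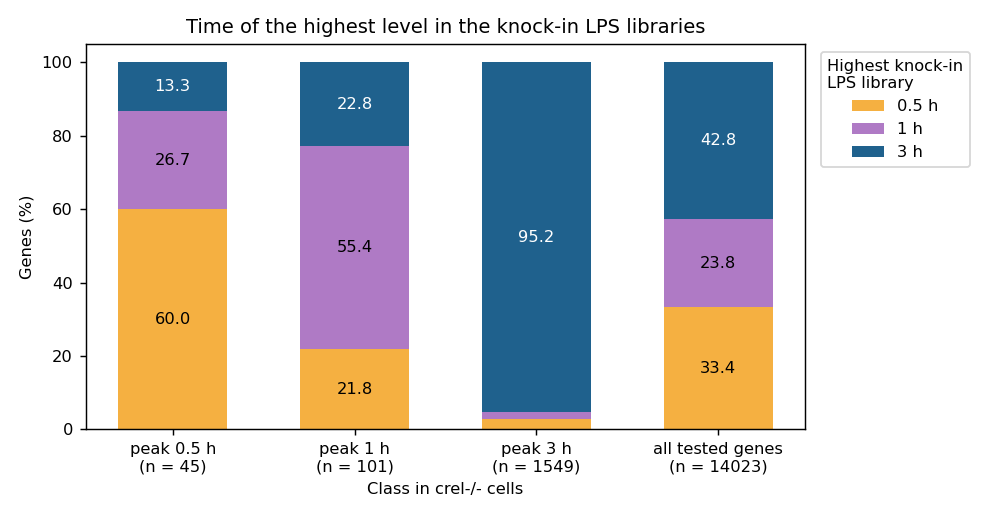
Percent of each peak class of the crel-/- LPS course that was highest at 0.5, 1 or 3 h in the 3 knock-in LPS libraries, beside all genes tested. The same time was shared by 60.0% of the 0.5 h class, 55.4% of the 1 h class and 95.2% of the 3 h class.

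In the classes with a 1 h peak, a 3 h peak or a 3 h trough, genes with another gene of the class nearby were more frequent than among all genes tested. Both shares were larger in the larger classes, so they do not compare the early classes with those of 3 h. Of the 101 genes with a 1 h peak, 15 (14.9%) had another gene of the class within 100 kb, against 2.57% of all genes tested. Of the 3 h class 669 (43.2%) had such a neighbour, against 26.9%. Of the 45 genes with a 0.5 h peak 2 did (4.44%), against 1.14%. These 2 are each other's neighbour, which is too few to compare. Genes with a 3 h trough had one in 44.4% of cases, against 36.6%. Overlapping gene models can share reads here, because no source used here gives the strand setting of the counting. The 3 h class took 6.48% of all counts at 0 h, 7.19% at 0.5 h, 8.13% at 1 h and 27.4% at 3 h.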

How the data were processed

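RNA from primary MEFs was sequenced as single-end reads of 50 nt from a stranded polyA kit with 12 PCR cycles, per the labels' protocols. Per the submitters' processing notes, cutadapt 1.12, STAR, featureCounts 1.5.1, DESeq2 and mm10 were used. Annotation release, strand setting and handling of multi-mapping reads: not given in the sources used here. Whole-number counts per gene, not normalized, were deposited by the authors for 20 libraries. Each column was matched to a condition by genotype, agent and hour.

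The filter kept genes that reached 1 CPM in 2 or more libraries. Levels and log2 differences (prior count 2) used TMM over all 20 libraries. Tests were edgeR 4.0.16 quasi-likelihood with Benjamini-Hochberg adjustment at 0.05 (R 4.3.3, limma 3.58.1), with DESeq2 1.42.0 as an alternative, and were tested on simulated data. A count of 3 corresponds to 0.245 to 0.423 CPM in the 4 libraries. PCR copies carry no molecular identifier, so intervals and floors describe counting error alone. Each condition has 1 library, so no p-value measures a spread between replicates. For LPS against 0 h the spread was the change among the LPS times. For the slope it was the departure from a straight line over hours, and for the agents it was agent differences that changed with time. Because the labels name no separate cultures, technical spread cannot be told apart from these.

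The members and the 27 gene lists (469 genes) were chosen with earlier results of these data known. Genes are named as list members, as the 8 largest per rising and 6 per falling class with at least 50 counts, as the 4 smallest p-values per test and direction, or as lying at a threshold; Malat1, Cd83 and the genes with opposite changes at 0.5 and 3 h were added after their values were seen. Alternatives were other scalings, folds, margins, filters, prior counts and libraries left out. Promoters and gene starts are from RefSeq GRCm38.p6, and 6 motifs were searched.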

Additional observations from a re-analysis of the deposited data

Results flagged for a closer look

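At 2-fold and with at least 50 counts in the highest of the 4 libraries, 12 genes changed in opposite directions at 0.5 and 3 h of LPS. A single change needed only 10 counts in its higher library, so 1 of the 2 changes can rest on few counts. The differences between times were not tested, since each time has 1 library. Early risers that later fell were Dnm3os, a host transcript of microRNAs (log2 1.33 at 0.5 h and -1.28 at 3 h), Ypel4 (1.15 and -1.37), Cyr61 under its newer symbol Ccn1 (1.20 and -1.32) and Scx, a tendon transcription factor (1.07 and -1.01). Early fallers that later rose were the BMP antagonist Nog (-1.60 and 3.83), the potassium channel Kcna4 (-1.24 and 3.44), Prom1 (-1.38 and 3.10), the adenosine receptor Adora2b (-1.40 and 1.46) and Tmem132e (-1.14 and 4.16). Shroom3, which shapes epithelial cells (-1.17 and 1.406), Pik3r6, a PI3 kinase subunit (-1.14 and 1.82), and Serpina3n, an acute phase protease inhibitor (-1.09 and 1.92), moved the same way.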

How the results depend on the processing

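No paired analysis was possible because each condition has 1 library and the labels carry no replicate numbers; the agents were matched by time instead. With DESeq2's size factors each class count stayed within 1.5 times, but the order of the 3 h classes turned (1694 peaks and 1641 troughs, against 1549 and 1839), as did that of the 3 h calls (1949 higher and 1865 lower, against 1806 and 2072). Leaving aside the settings with 1 library left out, 213 counts and shares were recomputed under an alternative. Of these, 153 were labelled as unchanged, which for a count meant staying within 1.5 times. Shares were judged by a separate rule, and the 3 h share in the knock-in cells (99.0%, given below) was labelled as changed. Many counts of tests with 1 library left out moved beyond 1.5 times, and their ranges are given below. At 4-fold, the genes higher at 0.5, 1 and 3 h numbered 102, 189 and 874 and those lower 22, 48 and 497, and the classes held 6, 38, 830 and 74 risers (peak 0.5 h, 1 h, 3 h, none) and 8, 22, 478 and 25 fallers. With at least 50 counts, 205 genes were called higher and 88 lower at 0.5 h (1 h: 352 and 243), with 8 and 47 early risers, 222 risers without a peak, 11 and 47 early fallers and 170 without a trough. Requiring counting intervals to clear the other times left 13 and 55 early risers and 7 and 46 early fallers. With library totals, 1183 were higher and 4403 lower at 3 h, 1025 peaked and 3986 bottomed at 3 h, the median gene shifted by -0.10, -0.13 and -0.56 log2 units, 5060 slopes fell, and 11 genes were higher than with IL-1b and 100 than with TNF. At 3 h, 2549 genes were then lower than with IL-1b, and 916 higher and 2994 lower than with TNF. A margin of 1 log2 unit gave 10 and 24 early risers, 787 without a peak, 9 and 40 early fallers and 965 without a trough. No margin gave 136 and 256 early risers and 101 and 241 early fallers. A prior count of 0.5 gave 64 and of 5 gave 20 fallers at 0.5 h. Among genes that passed the margin in the knock-in cells too, the share at the same time was 70.6%, 50.0% and 99.0%. These rest on 17, 34 and 1363 genes. Over all genes tested that passed this margin (2958), the shares highest at 0.5, 1 and 3 h were 13.2%, 8.65% and 78.1%. DESeq2 called 65 genes higher and 2 lower for LPS against 0 h, 42 and 9 against IL-1b and 478 and 301 against TNF. Without the time block 0 genes were called against IL-1b, and 63 higher and 19 lower against TNF. Leaving out 1 library gave 0 to 134 and 0 to 22 calls for LPS against 0 h, 181 to 1892 rising and 29 to 1610 falling slopes, 0 to 13 and 0 to 9 against IL-1b and 0 to 766 and 0 to 689 against TNF. The alternatives by counting interval, at 50 counts, within the LPS libraries and at matched times were chosen after seeing the data. Depth limits the early classes most: at 0 h 3 counts are 0.245 CPM.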
